A study of Mus musculus with 550 samples.

Results

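The comparison asked whether the response of the mouse kidney to a single dose of dimethyl fumarate (DMF, a fumaric acid ester) at 179.2 mg/kg was the same 12 h after dosing as it was at 6 h. For each gene the difference between dosed and vehicle mice at 12 h was set against the difference between dosed and vehicle mice at 6 h, in 1 interaction test. Members were chosen by sample title, and 31 of the 550 arrays of the series entered the contrast. They were 7 vehicle and 8 dosed kidneys at 6 h, and 8 vehicle and 8 dosed kidneys at 12 h. The mice were C57BL/6, their age and sex are not given in the sources used here, and vehicle mice received the hydroxypropyl methylcellulose suspension agent that the DMF was given in. The series also holds kidneys of mice given DMF at 100 mg/kg, monoethyl fumarate salts (MEF, the calcium, magnesium and zinc salts of the monoethyl ester) at 79.2 mg/kg or both, and undosed mice at 12 h, 77 kidney arrays in all among 7 organs. Kidney is the labelled tissue although the series description does not name it. Its 11 measured proximal tubule markers, summed, reached 14.65 to 15.35 log2 on the 31 arrays, and none of them lay at the floor of the measurement.

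DMF is an electrophile that reacts with cysteine thiols, including those of KEAP1, the protein that marks the transcription factor NRF2 for destruction. When KEAP1 is modified, NRF2 accumulates and raises genes for quinone reduction, glutathione supply, heme breakdown and efflux of conjugates. The kidney takes up and clears organic acids and conjugates derived from glutathione, chiefly in its proximal tubule. A second program, led by the transcription factor ATF4, answers amino acid shortage and other stresses and raises amino acid transporters, aminoacyl-tRNA synthetases and regulators such as TRIB3 and CHAC1.

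Values are log2 levels of 1 probe set per gene, and 17097 genes were tested. An effect is the mean of the dosed arrays minus that of the vehicle arrays at the same time, and the time contrast is the 12 h effect minus the 6 h effect, both in log2 with the standard error (SE) of the fit. A gene is called when its Benjamini-Hochberg adjusted p from limma over all genes is below 0.05. The 6 h and 12 h arrays were taken as normalized apart, since their floors and medians differ. A level is therefore compared only within a time, and a time contrast compares effects.

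The response was wider at 6 h than at 12 h. At 6 h 4267 genes were called, 25 percent of those tested, 2559 of them higher and 1708 lower in dosed kidneys. After a further quantile normalization within each time they were 2081 higher and 2225 lower. At 12 h 1240 genes were called, 7.25 percent, 776 of them higher and 464 lower. The time contrast itself was called for 1220 genes, 7.14 percent, above 0 in 569 and below 0 in 651 (3.33 and 3.81 percent), and 3242 genes (19 percent) had an unadjusted p below 0.05. A further quantile normalization within each time gave 698 above and 617 below 0. Weighting the arrays by their fit gave 2278 calls at 12 h and 2157 in the time contrast. Of the 1220 called genes, 233 had a contrast past 0.5 log2 and 25 past 1 log2.

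Most called time contrasts belonged to early responses that had shrunk. In 584 genes a rise called at 6 h had a contrast below 0, and their median effect went from 0.40 at 6 h to 0.00 at 12 h. In 466 genes a fall called at 6 h had a contrast above 0, with median effects of -0.30 and 0.01. Later responses were fewer. A rise called at 12 h had a contrast above 0 in 93 genes, and a fall called at 12 h had a contrast below 0 in 60. Among these are 36 genes that stand in both an early and a later group, called in opposite directions at the 2 times, 14 going from a rise to a fall and 22 from a fall to a rise. A further 53 genes had a called contrast but no call at either time. These medians describe genes that the same calls selected. Across all genes the 6 h and 12 h effects had a Pearson r of 0.52, a description only, since genes are not independent replicates.

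**Figure D1:**
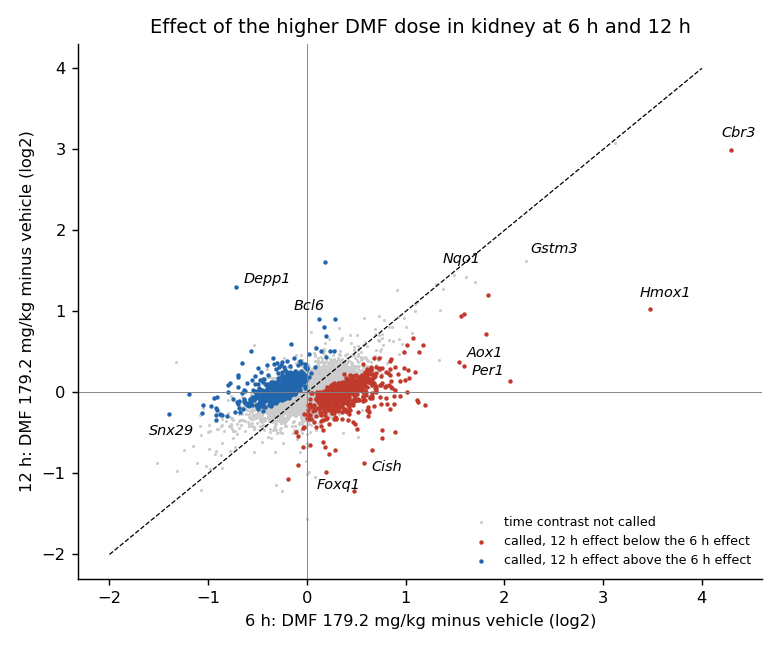
Effect of the higher DMF dose in the kidney at 6 h (horizontal axis, log2) and at 12 h (vertical axis, log2), 1 point per gene. Genes whose time contrast was called are red where the 12 h effect is below the 6 h effect (651) and blue where it is above (569), grey points were not called, and the dashed line marks equal effects. Red and blue points lie mostly along the horizontal axis, where the 12 h effect is near 0.

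A share of the response lasted. In 343 genes a rise was called at both times and the contrast did not reach an unadjusted p of 0.05, and in 210 genes the same held for a fall. Of 735 genes called at both times, 699 had the same direction.

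The sample titles give animal numbers and name no run or batch, so runs of 12 numbers are an assumption. Counted in such runs, vehicle animals hold places up to 8 and dosed animals places 5 to 12, at both times. Treatment and place then overlap only at places 5 to 8. Restricted to these 15 arrays (3 vehicle and 4 dosed at 6 h, 4 and 4 at 12 h) only 1 gene passed the adjusted threshold in the time contrast. Of the 1220 called genes, 1217 kept the sign of their contrast there, 784 had an unadjusted p below 0.05, and the median ratio of the restricted to the full contrast was 0.85. These 15 arrays are among those that selected the genes, so kept signs and low p-values were favoured in advance. They are no independent check of place. The part of place in single genes was not tested beyond this restriction and fits with place as a line or curve at each time. Those fits called 1213 and 1369 contrasts, but only 933 and 984 of the 1220 genes stayed called. They called 3498 and 3669 genes at 6 h and 1015 and 1226 at 12 h. Nothing in the labels says that an animal gave more than 1 kidney array.

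**Figure D2:**
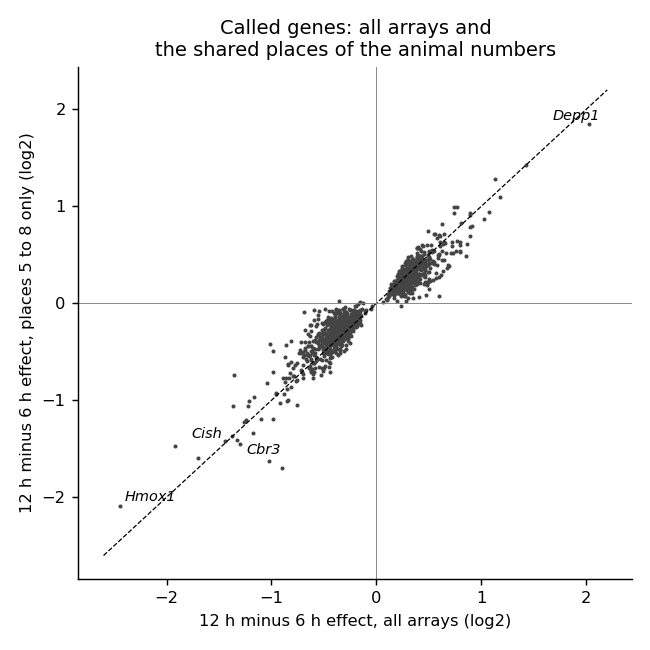
Time contrast of the 1220 called genes over all arrays (horizontal axis, log2) and over the arrays at the places that both treatments hold (vertical axis, log2), 1 point per gene, with the dashed line marking equal contrasts. All but 3 of the points keep their sign, and Hmox1 and Depp1 lie farthest from 0 on either side. The arrays of the vertical axis are part of those of the horizontal axis, so the axes are not independent.

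Most genes of the NRF2 lists rose at 6 h, and for a part of them the rise had shrunk by 12 h. Over the 7 NRF2 lists and the glutathione transferases, 61 of 68 listed genes were measured. At 6 h 43 of them were higher and 3 lower, beside 15 and 9.99 percent of all genes. At 12 h 37 were higher and none lower, beside 4.54 and 2.71 percent. The time contrast was below 0 in 15 and above 0 in 1, beside 3.81 and 3.33 percent of all genes. Of the 43 genes called higher at 6 h, 32 had a smaller 12 h value. That share was below the 94.1 percent of all 2559 genes called higher at 6 h. Both shares were favoured in advance, since a high 6 h effect selected the genes and also lowers the contrast. Among those 2559 genes, 584 had a called contrast below 0. The median effect of the 61 was 0.34 at 6 h and 0.23 at 12 h, and their median contrast was -0.05, against 0.00 over all genes in each case. Nfe2l2, which encodes NRF2, had effects of -0.01 ± 0.06 at 6 h and -0.02 ± 0.06 at 12 h, and neither was called, by its brighter probe set. Its other probe set had effects of 0.20 and 0.67, and that contrast of 0.47 was not called (adjusted p = 0.0602).

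**Figure D3:**
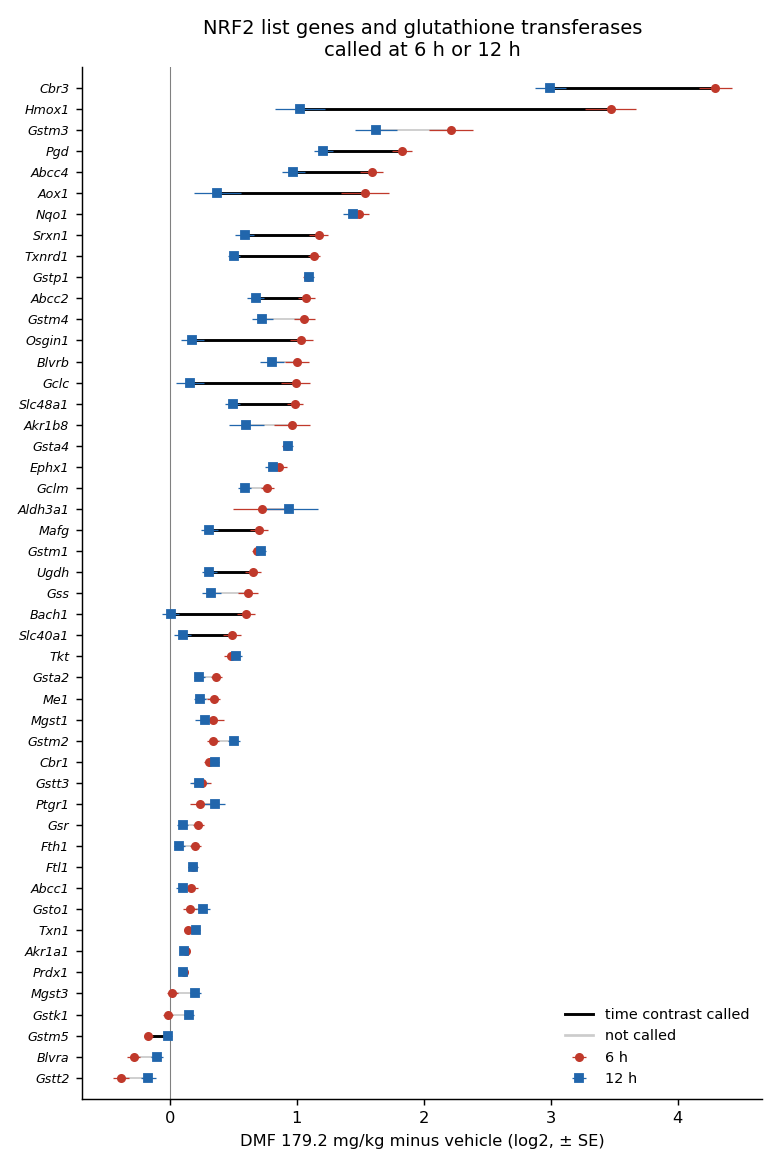
Effects of the higher DMF dose (log2, horizontal axis, error bars SE) at 6 h (red circles) and 12 h (blue squares) for the genes of the NRF2 lists and the glutathione transferases that were called at 6 h or 12 h, ordered by the 6 h effect. A black line joins the points where the time contrast was called, as in Hmox1 and Cbr3, and a grey line where it was not, as in Nqo1 and Gstp1.

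Promoters are shown for genes with and without a called contrast, since the antioxidant response element (ARE), which NRF2 binds with small MAF proteins, lies near the start site of many of these genes. The element was searched as its core letters TGACNNNGC on both strands of the RefSeq window of 300 bases around each start site, 250 of them before it (GRCm38.p6). This core is in 12.4 percent of all 32851 windows. By gene it was in 16 of 51 NRF2 list genes and glutathione transferases with a window, 31.4 percent, against 16.1 percent of the 13605 tested genes that have one. It was in 21.1 percent of 470 early rises that had shrunk, 18.1 percent of 387 early falls that had shrunk and 15.4 percent of 285 lasting rises. The ATF4 lists held it in 10 of 25 genes with a window, 40 percent. Windows of Txnrd1 (chr10:82858956-82859255, plus strand), Srxn1 (chr2:152105274-152105573, plus strand) and Prdx1 (chr4:116685349-116685648, plus strand) each held it once, on the minus strand, and capitals mark it. Other forms of the element were not searched and are not marked. Txnrd1 and Srxn1 are early rises that had shrunk, and Prdx1 kept a small rise by its brighter probe set.

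Txnrd1: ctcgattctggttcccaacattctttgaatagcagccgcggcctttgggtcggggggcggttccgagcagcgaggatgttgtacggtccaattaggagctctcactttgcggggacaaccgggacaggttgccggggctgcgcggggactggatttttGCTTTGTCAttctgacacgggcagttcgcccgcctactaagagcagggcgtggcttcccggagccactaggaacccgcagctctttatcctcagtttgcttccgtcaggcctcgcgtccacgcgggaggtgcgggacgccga

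Srxn1: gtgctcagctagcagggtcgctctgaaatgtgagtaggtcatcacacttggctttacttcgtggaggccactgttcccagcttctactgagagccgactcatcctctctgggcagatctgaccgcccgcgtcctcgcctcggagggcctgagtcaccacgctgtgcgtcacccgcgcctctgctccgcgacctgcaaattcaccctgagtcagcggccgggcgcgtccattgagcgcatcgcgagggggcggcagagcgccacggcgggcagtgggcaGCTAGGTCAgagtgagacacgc

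Prdx1: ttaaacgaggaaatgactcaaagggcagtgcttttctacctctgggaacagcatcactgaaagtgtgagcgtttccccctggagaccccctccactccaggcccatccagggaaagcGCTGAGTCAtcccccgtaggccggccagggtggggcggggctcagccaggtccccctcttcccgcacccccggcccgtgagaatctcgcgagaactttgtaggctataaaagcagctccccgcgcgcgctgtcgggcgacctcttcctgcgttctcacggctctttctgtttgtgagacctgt

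Hmox1, heme oxygenase, which opens heme to biliverdin, carbon monoxide and iron, had the lowest time contrast of all genes tested. At 6 h its level was 7.13 to 9.07 with a median of 7.72 in vehicle kidneys, and 10.99 to 11.99 with a median of 11.54 in dosed kidneys. At 12 h it was 6.53 to 6.89 with a median of 6.72 in vehicle kidneys, and 7.44 to 8.22 with a median of 7.72 in dosed kidneys. The groups did not overlap at either time, but the distance between them was far smaller at 12 h. The effect was 3.47 ± 0.20 at 6 h (11.1-fold) and 1.03 ± 0.20 at 12 h (2.04-fold), a contrast of -2.45 ± 0.28 (adjusted p = 6.38e-09). Among other genes of heme and iron handling, the heme transporter Slc48a1 went from 0.99 to 0.49, a contrast of -0.49 ± 0.09, and the iron exporter Slc40a1 from 0.49 to 0.10, a contrast of -0.39 ± 0.10, both called. The other probe set of Slc48a1 went from 0.80 to 0.70, a contrast of -0.10. Alas1, which starts heme synthesis and was in no NRF2 list, rose at both times, by 1.31 ± 0.11 and 1.34 ± 0.10.

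Cbr3, a carbonyl reductase, had the largest effect at 6 h of all genes tested. Its level at 6 h was 5.21 to 5.82 (median 5.45) in vehicle kidneys and 9.42 to 10.03 (median 9.79) in dosed kidneys. At 12 h the range was 4.27 to 5.32 (median 4.78) in vehicle kidneys and 7.31 to 8.28 (median 7.75) in dosed kidneys. Every dosed kidney lay above every vehicle kidney of its time by more than 1 log2 unit. The effect went from 4.30 ± 0.13 (19.7-fold) at 6 h to a 7.98-fold rise at 12 h, a contrast of -1.30 ± 0.18 (adjusted p = 8.9e-07). Aox1, an aldehyde oxidase, rose by 1.54 ± 0.19 at 6 h, while its 12 h effect of 0.37 ± 0.18 was not called, and the contrast of -1.16 ± 0.27 was.

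Nqo1, the quinone reductase most used as an NRF2 readout, held its rise. It lay at 9.41 to 9.81 (median 9.58) in vehicle and 10.87 to 11.20 (median 11.11) in dosed kidneys at 6 h. At 12 h it lay at 8.39 to 8.94 (median 8.66) in vehicle and 9.68 to 10.52 (median 10.18) in dosed kidneys. The groups were apart at both times by similar distances. The effects were 1.49 ± 0.08 (2.81-fold) and 1.45 ± 0.08 (2.72-fold), and the contrast of -0.05 ± 0.11 was not called. The aldo-keto reductase Akr1b8 had effects of 0.96 and 0.60 and a contrast of -0.36 ± 0.20 that was not called.

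Of 6 measured genes of glutathione synthesis and recycling, 4 were higher at 6 h and 2 at 12 h, none was lower, and 1 contrast was called. Gclc, the catalytic subunit of the rate-limiting enzyme of glutathione synthesis, had medians of 10.20 in vehicle and 11.22 in dosed kidneys at 6 h, with no overlap. At 12 h the ranges of 9.22 to 9.96 and 9.46 to 9.99 overlapped. Its effect went from 0.99 ± 0.11 to 0.16 ± 0.11, and the contrast was -0.83 ± 0.16 (adjusted p = 0.000191). Gclm, the modifier subunit of the same enzyme, had effects of 0.77 ± 0.05 and 0.59 ± 0.05, both called, and its contrast of -0.18 ± 0.07 was not called (adjusted p = 0.141), although it was with array weights (adjusted p = 0.0482). The difference between the subunits was not tested.

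Glutathione transferases conjugate electrophiles to glutathione. Of 17 measured, 10 were higher and 2 lower at 6 h, 12 were higher and none lower at 12 h, and the median effects were 0.26 and 0.23. Of the 10 early rises 5 were smaller at 12 h. The largest was that of Gstm3, a dim gene, at 2.21 ± 0.17 and 1.62 ± 0.17 by its brighter probe set. Its contrast of -0.59 ± 0.24 was not called (adjusted p = 0.132), and its other probe set gave effects of -0.00 and 0.00. Gstp1 rose by 1.09 ± 0.04 and 1.10 ± 0.04, Gsta4 by 0.92 ± 0.04 and 0.93 ± 0.04, and Gstm1 by 0.69 ± 0.04 and 0.72 ± 0.04. The contrasts of these 3 genes were 0.01, 0.01 and 0.03 with SE of 0.05 to 0.06, and none was called. The Gstm genes are close copies of each other and the probe sets of Gstm1 and Gstm3 are of kinds that can match several transcripts. Gstm5 was the 1 called contrast of the list and the 1 above 0 among all NRF2 genes, with 0.15 ± 0.05 after a 6 h fall of 0.17. That call was lost when any of 13 single arrays was left out.

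All 4 measured genes of the thioredoxin system were higher at both times, and 2 had a called contrast below 0. Of 5 measured genes of NADPH supply, 3 were higher at each time and 1 had a called contrast below 0. Txnrd1, thioredoxin reductase, was at 11.58 to 11.78 in vehicle and 12.73 to 12.92 in dosed kidneys at 6 h, and at 11.36 to 11.60 and 11.79 to 12.24 at 12 h. All dosed kidneys were above all vehicle kidneys at both times. Its effect went from 1.14 ± 0.05 to 0.50 ± 0.05, a contrast of -0.63 ± 0.07 (adjusted p = 1.02e-09). Srxn1, sulfiredoxin, which repairs overoxidized peroxiredoxins, went from 1.17 to 0.59 with a contrast of -0.58 ± 0.11. Prdx1, a peroxiredoxin, had effects of only 0.11 ± 0.03 and 0.10 ± 0.03, both called, and a contrast of -0.01 ± 0.04 that was not. Its other probe set gave effects of 0.01 and 0.00. Pgd, of the pentose phosphate pathway, went from 1.83 to 1.21, and its contrast of -0.62 ± 0.11 was close to that of its other probe sets (-0.61 and -0.54).

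Of 8 measured genes of conjugation and efflux, 5 were higher at 6 h and 4 at 12 h, none was lower, and 3 had a called contrast below 0, with a median contrast of -0.09. The transporters Abcc4 and Abcc2, which export conjugates, went from 1.59 to 0.97 and from 1.08 to 0.68, with contrasts of -0.62 ± 0.13 and -0.40 ± 0.09. Ugdh, which makes the sugar donor for glucuronidation, went from 0.65 to 0.31, a contrast of -0.34 ± 0.09. Each of these contrasts was called. Ephx1, the microsomal epoxide hydrolase, rose by 0.86 ± 0.06 and 0.81 ± 0.06, and its contrast of -0.04 ± 0.09 was not called.

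Of 6 measured regulators of the pathway, 3 were higher at 6 h and 1 at 12 h, none was lower, and 3 had a called contrast below 0. Osgin1, an oxidative stress growth inhibitor, went from 1.03 ± 0.09 to 0.18 ± 0.09, a contrast of -0.86 ± 0.13 (adjusted p = 4.5e-06). Mafg, a small MAF partner of NRF2, went from 0.70 to 0.31, a contrast of -0.39 ± 0.10, but its contrast was -0.14 ± 0.11 over places 5 to 8. Bach1, a repressor of Hmox1 that competes with NRF2, had a 6 h effect of 0.60 ± 0.07 and a 12 h effect of 0.01 ± 0.07 by its brighter probe set, and the contrast of -0.59 ± 0.10 was called. Its other probe set gave 0.15 with the opposite sign, and the mean of both was not called (-0.22, adjusted p = 0.0604).

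**Figure D4:**
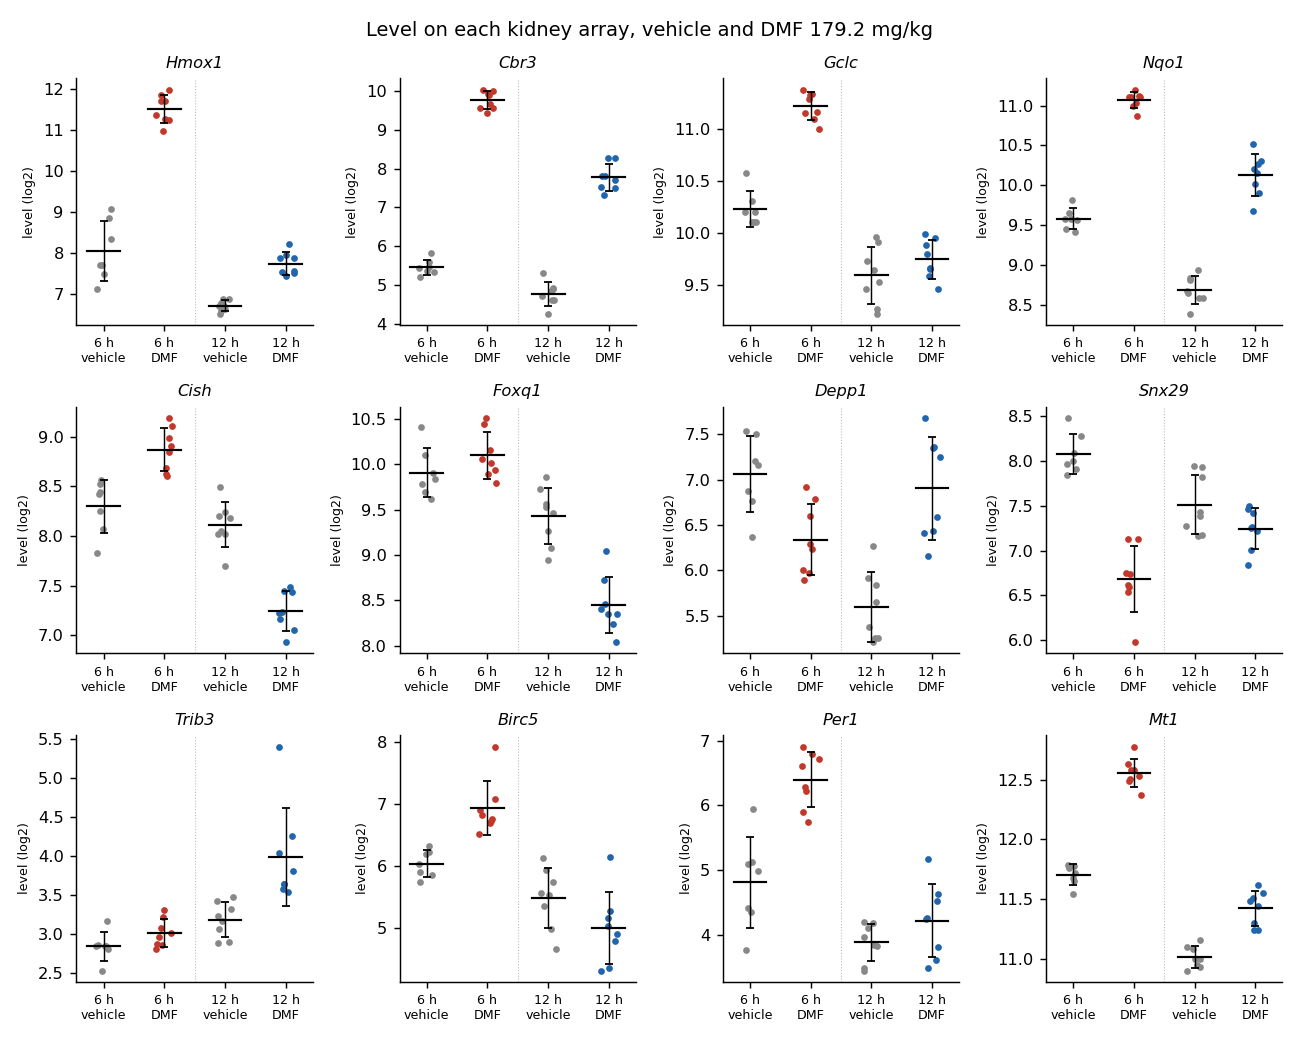
Log2 level on each array (points) with group mean and SD (bars) of 12 genes in vehicle (grey) and higher-dose kidneys at 6 h (red) and 12 h (blue). The vertical axes differ between genes and levels are comparable only within a time. Dosed and vehicle kidneys are apart at both times in Hmox1, Cbr3, Nqo1, Cish and Mt1, and overlap at 12 h in Gclc, Snx29, Birc5 and Per1.

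The ATF4 lists held rises at both times and few called contrasts. Of 14 measured stress regulators, 6 were higher and 1 lower at 6 h, 8 higher and none lower at 12 h, and the time contrast was above 0 in 1 and below 0 in 1. Of 16 measured genes of amino acid synthesis, transport and charging, 10 were higher at 6 h, 11 were higher and 1 lower at 12 h, and the contrast was below 0 in 4 and above 0 in none. Median contrasts of the lists were 0.10 and -0.05. Over all genes 15 percent were higher and 9.99 percent lower at 6 h, and 4.54 and 2.71 percent at 12 h. The contrast was above 0 in 3.33 and below 0 in 3.81 percent. With place as a line at each time, 6 stress regulators were higher and none lower at 12 h. In that fit 6 of the amino acid genes were higher and 1 lower at 12 h, and 532 of all genes were higher, against 776. Of the 14 stress regulators, 7 were below the median level of all genes.

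Atf4 itself was at 10.14 to 10.32 in vehicle and 10.52 to 10.90 in dosed kidneys at 6 h, with no overlap. At 12 h it was at 9.38 to 9.64 and 9.39 to 9.77, with nearly full overlap. Its effect went from 0.49 ± 0.05 to 0.00 ± 0.05, a contrast of -0.48 ± 0.08 (adjusted p = 9.3e-06), while its other probe set gave -0.05. Trib3, a pseudokinase induced by ATF4, ran the other way. It was at 2.53 to 3.16 in vehicle and 2.80 to 3.31 in dosed kidneys at 6 h, not far above the floor, and at 2.88 to 3.47 and 3.53 to 5.40 at 12 h. The dosed kidneys overlapped with vehicle at 6 h and were all above it at 12 h, where replicate 24 was the highest. The effect of 0.17 ± 0.13 at 6 h was not called, that of 0.81 ± 0.13 at 12 h was, and the contrast of 0.64 ± 0.18 had an adjusted p of 0.0214. In a fit of only the 4 groups compared the contrast was not called (adjusted p = 0.154).

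Chac1, which degrades glutathione, Asns, asparagine synthetase, and the transcription factor Atf3 rose at both times. Their effects were 1.38 ± 0.21 and 1.28 ± 0.20, 0.76 ± 0.16 and 0.71 ± 0.15, and 0.78 ± 0.19 and 0.89 ± 0.19. No contrast of these 3 genes was called, and their SE was 0.22 to 0.29. The charging enzymes Aars, for alanine, and Gars, for glycine, went from 0.85 to 0.39 and from 0.49 to 0.21, with called contrasts of -0.45 ± 0.11 and -0.28 ± 0.06. The other probe set of Aars gave -0.23. Over places 5 to 8 the contrast of Aars was -0.08 ± 0.08. Slc3a2, the heavy chain of amino acid exchangers, went from 0.23 to 0.03, a called contrast of -0.20 ± 0.06, and over places 5 to 8 it was -0.03 ± 0.06.

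Slc38a2, a neutral amino acid transporter, was higher at 6 h and lower at 12 h. Dosed kidneys lay at 9.13 to 9.57 against 8.62 to 9.16 at 6 h, and at 7.92 to 8.99 against 8.34 to 8.87 at 12 h, overlapping at both times. The effects of 0.49 ± 0.12 and -0.39 ± 0.12 were both called, and the contrast was -0.88 ± 0.17. It rests on the brightest of 3 probe sets, since the other two each gave 0.06, and the mean of all 3 was not called (-0.25, adjusted p = 0.0597).

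The C/EBP-ATF response element, which ATF4 binds, was searched as TGATGCAA on both strands of the same windows. It is in 0.895 percent of all windows and in 6 of 25 genes of the ATF4 lists with a window, 24.0 percent, against 0.816 percent of tested genes. Aars (chr8:111033592-111033891, plus strand), whose rise shrank, and Chac1 (chr2:119350992-119351291, plus strand), whose rise did not, each hold it once on the minus strand, in capitals. The Aars window also holds the ARE core, outside these letters.

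Aars: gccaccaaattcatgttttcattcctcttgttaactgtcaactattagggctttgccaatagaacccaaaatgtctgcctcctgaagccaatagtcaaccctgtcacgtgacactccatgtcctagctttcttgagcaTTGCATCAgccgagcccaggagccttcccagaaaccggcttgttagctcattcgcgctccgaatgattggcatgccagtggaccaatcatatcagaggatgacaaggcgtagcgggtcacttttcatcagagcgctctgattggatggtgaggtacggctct

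Chac1: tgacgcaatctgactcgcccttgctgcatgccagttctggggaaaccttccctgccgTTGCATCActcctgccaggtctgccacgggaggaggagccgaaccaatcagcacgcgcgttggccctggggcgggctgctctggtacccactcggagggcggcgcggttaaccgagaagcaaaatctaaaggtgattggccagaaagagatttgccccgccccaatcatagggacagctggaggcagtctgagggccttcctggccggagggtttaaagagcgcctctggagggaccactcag

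Among zinc response genes, Mt1 and Slc30a1 had smaller effects at 12 h than at 6 h. Mt1, the metal-binding metallothionein, was at 11.54 to 11.79 in vehicle and 12.37 to 12.78 in dosed kidneys at 6 h, and at 10.90 to 11.16 and 11.24 to 11.62 at 12 h. The groups stayed apart at both times. The effect went from 0.86 ± 0.06 to 0.41 ± 0.06, a contrast of -0.45 ± 0.09 (adjusted p = 0.000304). Slc30a1, a zinc exporter, went from 0.30 to 0.07, a contrast of -0.23 ± 0.05. With the probe set of largest variance these contrasts were -0.48 and -0.17 and not called (adjusted p = 0.147 and 0.271). Of 4 measured zinc response genes, 3 were higher and 1 lower at 6 h, beside 15 and 9.99 percent of all genes. At 12 h 1 was higher and none lower, beside 4.54 and 2.71 percent. The contrast was below 0 in 2 and above 0 in none, beside 3.81 and 3.33 percent.

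Beyond the lists, the lowest contrasts among brighter genes included early rises, reversals and later falls. Cish, which damps cytokine signalling through STAT5, was at 7.83 to 8.57 (median 8.42) in vehicle and 8.61 to 9.19 (median 8.88) in dosed kidneys at 6 h. At 12 h it was at 7.70 to 8.49 (median 8.12) in vehicle and 6.93 to 7.49 (median 7.23) in dosed kidneys. Dosed kidneys were all above vehicle at 6 h and all below at 12 h. The effects were 0.57 ± 0.16 and -0.87 ± 0.15, and the contrast was -1.44 ± 0.22 (adjusted p = 8.34e-06). Ppp1r10, a nuclear subunit of protein phosphatase 1, had effects of 0.76 ± 0.13 and -0.46 ± 0.13, both called, and a contrast of -1.23 ± 0.18. Vwce, Mir22hg (the host transcript of a microRNA) and Pprc1, a coactivator of mitochondrial genes, rose by 0.94, 0.81 and 0.88 at 6 h. Their 12 h effects of -0.05, -0.14 and -0.04 were not called, and their contrasts were -0.99, -0.96 and -0.92. The contrast of Vwce was -0.49 ± 0.12 over places 5 to 8.

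Some genes were called lower at 12 h and not called at 6 h. Foxq1, a forkhead transcription factor, was at 9.62 to 10.41 in vehicle and 9.79 to 10.51 in dosed kidneys at 6 h, and at 8.95 to 9.86 and 8.04 to 9.04 at 12 h. The groups were mixed at 6 h, and at 12 h they overlapped only at their edges. Its effects were 0.19 ± 0.16, not called, and -0.98 ± 0.15, and the contrast was -1.17 ± 0.22 (adjusted p = 0.00023). The immediate early gene Ier3 went from 0.28 ± 0.18 to -0.71 ± 0.17, a contrast of -0.99 ± 0.25. Ccn1, a matrix protein driven by SRF and YAP, went from -0.20 ± 0.20 to -1.07 ± 0.20. Its contrast of -0.87 ± 0.28 was called with an adjusted p of 0.0449, and the call was lost without any of 19 single arrays. Hdc, histidine decarboxylase, had effects of -0.25 ± 0.25 and -1.22 ± 0.24, the latter called, while its contrast of -0.96 ± 0.35 was not (adjusted p = 0.0824). With array weights it was -1.19 and called.

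Of 17 measured clock genes, 3 had a called contrast, beside 7.14 percent of all genes, and the median contrast was -0.03. At 6 h 2 were higher and 2 lower, beside 15 and 9.99 percent of all genes. At 12 h 1 was higher and 1 lower, beside 4.54 and 2.71 percent. Per1, a repressor of the clock that also answers glucocorticoids, rose by 1.59 ± 0.26 at 6 h (3.77 to 5.94 in vehicle, 5.75 to 6.91 in dosed kidneys). At 12 h its ranges were 3.45 to 4.20 and 3.49 to 5.17, the effect of 0.33 ± 0.25 was not called, and the contrast was -1.26 ± 0.36 (adjusted p = 0.0201). Per1 was below the median level of all genes, and its vehicle kidneys at 6 h alone spanned more than 2 log2 units. Without vehicle replicate 54 its contrast was -1.08 and not called, and neither was it after quantile normalization over both times together (adjusted p = 0.0577). Cry1, a second repressor, went from 0.61 ± 0.13 to -0.21 ± 0.13, a contrast of -0.82 ± 0.19. Nfil3, a repressor of clock output genes, went from -0.13 ± 0.11 to 0.43 ± 0.11, a contrast of 0.56 ± 0.15.

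The highest contrast belonged to Depp1, a target gene of FOXO factors. At 6 h it was at 6.37 to 7.54 (median 7.16) in vehicle and 5.89 to 6.92 (median 6.27) in dosed kidneys. At 12 h it was at 5.21 to 6.27 (median 5.52) in vehicle and 6.16 to 7.68 (median 6.92) in dosed kidneys. Dosed kidneys tended low at 6 h and high at 12 h, with some overlap each time. The effects of -0.72 ± 0.25 and 1.31 ± 0.24 were both called, the contrast was 2.03 ± 0.35 (adjusted p = 5.51e-05), and its other probe set gave 2.15. Hsf2bp, a partner of heat shock factor 2, likewise went from -0.57 ± 0.10 to 0.51 ± 0.10, a contrast of 1.08 ± 0.14, but its other probe set gave 0.01.

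Other high contrasts were early falls that had shrunk. Snx29, a sorting nexin, was at 7.84 to 8.48 in vehicle and 5.98 to 7.13 in dosed kidneys at 6 h, and at 7.16 to 7.94 and 6.84 to 7.50 at 12 h. The groups were apart at 6 h and overlapped at 12 h. The effect went from -1.40 ± 0.14 to -0.27 ± 0.13, a contrast of 1.13 ± 0.19, and its other probe set gave 0.23. Napsa, an aspartic protease, and Kcnj15, a potassium channel, fell by 1.05 and 1.06 at 6 h. Their 12 h effects of -0.16 and -0.25 were not called, and their contrasts were 0.90 ± 0.14 and 0.81 ± 0.19. Zfp101, a zinc finger gene, went from -0.78 to 0.12 and Id1, an inhibitor of helix-loop-helix factors, from -0.49 to 0.30, with contrasts of 0.89 ± 0.17 and 0.79 ± 0.21. The other probe set of Zfp101 gave 0.27. Bcat1, which transaminates branched-chain amino acids, went from -0.69 to 0.22. Its contrast of 0.91 ± 0.28 was called with an adjusted p of 0.0348, and the call was lost without any of 11 single arrays or with place in the fit. The probe set of largest variance gave 0.38.

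Among brighter genes with a later rise, Bcl6, a transcriptional repressor, had an uncalled 6 h effect of 0.12 ± 0.17 and rose by 0.91 ± 0.16 at 12 h, a contrast of 0.79 ± 0.23. That call was lost without vehicle 12 h replicate 4 (0.69). C8g, a complement subunit, was at 7.21 to 7.41 in vehicle and 6.82 to 7.48 in dosed kidneys at 6 h, and at 6.33 to 6.73 and 6.97 to 7.41 at 12 h. Only the 12 h groups were apart. Its effects were -0.17 ± 0.08, not called, and 0.60 ± 0.08, and the contrast was 0.77 ± 0.11 (adjusted p = 1.63e-06). Igfbp1, which binds insulin-like growth factors and responds to fasting, fell by 0.41 at 6 h and rose by 0.33 ± 0.10 at 12 h, a contrast of 0.74 ± 0.15.

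Lasting changes outside the NRF2 lists included aldehyde dehydrogenases. Aldh1a7 rose by 1.61 ± 0.14 and 1.43 ± 0.14, and Aldh1a1 by 1.11 ± 0.14 and 1.12 ± 0.13. The groups were apart at both times in both genes, and neither contrast was called. Hpd, an enzyme of tyrosine breakdown, fell by 0.73 and 0.68, and Tenm4, a teneurin, by 0.71 and 0.52, again with no called contrast. The other probe sets of Tenm4 gave smaller effects, of -0.35 and -0.10 and of -0.20 and -0.07.

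The counts of the next lists stand beside the same shares of all genes, 15 percent higher and 9.99 percent lower at 6 h, 4.54 and 2.71 percent at 12 h, and 7.14 percent with a called contrast. Of 19 measured genes of the cell cycle and replication, 9 were higher and 1 lower at 6 h, and 3 were higher at 12 h. The contrast was below 0 in 3 and above 0 in 1. The level of 14 of the 19 was below the median of all genes. With place as a line at each time, 5 were higher and none lower at 6 h, and none was called at 12 h. A fit of only the 4 groups compared gave 6 higher and none lower at 6 h, and 1 higher at 12 h. Birc5, survivin, which acts in chromosome segregation, was at 5.75 to 6.32 in vehicle and 6.51 to 7.92 in dosed kidneys at 6 h, and at 4.66 to 6.13 and 4.32 to 6.15 at 12 h. Dosed kidneys were all above vehicle at 6 h, and at 12 h the groups overlapped. Its effect went from 0.89 ± 0.21 to an uncalled -0.49 ± 0.20, a contrast of -1.37 ± 0.29 (adjusted p = 0.000875). Cyclin Ccna2 and the ribonucleotide reductase subunit Rrm2 had contrasts of -0.96 ± 0.25 and -0.59 ± 0.12, and Tyms, thymidylate synthase, 0.26 ± 0.08. The calls of Ccna2 and Tyms were lost in a fit of only the 4 groups compared, and that of Tyms also without any of 15 single arrays or with place in the fit. The other probe sets of Ccna2 and Rrm2 gave -0.20 and -0.02, and the mean of all 5 Tyms probe sets was 0.06. Birc5, Ccna2 and Rrm2 were below the median level of all genes. Of 13 cytosolic chaperones, 9 were higher at 6 h, and 4 were higher and 2 lower at 12 h. Dnaja1, a partner of HSP70, was the 1 called contrast, from 0.37 to -0.11 (-0.49 ± 0.08), a share near that of all genes. Of 32 proteasome subunits, 10 were higher and 4 lower at 6 h, 14 were higher and none lower at 12 h, and the contrast was above 0 in 4 and below 0 in none.

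Lists with no called contrast included endoplasmic reticulum chaperones (14 measured), inflammatory NF-kB genes (15) and complex I subunits (28), beside proximal tubule (11), thick ascending limb (5) and podocyte (4) markers. Of 8 endothelial markers 3 were lower and 1 higher at 6 h, and the median contrast was 0.18. Emcn, an endothelial sialomucin, had the 1 called contrast, 0.34 ± 0.11. Of 6 principal cell markers of the collecting duct, the water channel Aqp2 had the 1 called contrast, -0.38 ± 0.12. The median contrast of these 6 markers was 0.10, of the opposite sign. The 3 measured adipocyte markers had median effects of -1 at 6 h and -0.87 at 12 h, and none was called at either time. In whole tissue, fewer cells of a type and less RNA per cell cannot be told apart. The summed level of 8 neutrophil markers was 6.71 to 7.25 in vehicle and 7.25 to 8.91 in dosed kidneys at 6 h. At 12 h it was 6.04 to 6.50 and 6.16 to 7.11. Of the 8 markers, 2 were higher and none lower at 6 h, beside 15 and 9.99 percent of all genes. None was called at 12 h. Their median effects were 0.03 and 0.00, and all 8 were below the median level of all genes. Ngp at 6 h, and Cxcr2 and Csf3r at 12 h, were at the floor on every array. S100a8 and S100a9, calcium-binding proteins of neutrophils, rose at 6 h by 1.34 ± 0.24 and 0.97 ± 0.28, and their contrasts of -0.95 ± 0.34 and -0.48 ± 0.38 were not called, although that of S100a8 was with array weights (adjusted p = 0.0327). Of 10 macrophage markers, 3 were higher and 1 lower at 6 h and none was called at 12 h. C1qc had a contrast of -0.45 ± 0.14 (adjusted p = 0.0383), a call lost in a fit of only the 4 groups compared, with place in the fit, or without any of 12 single arrays. Their summed level was 9.71 to 9.95 in vehicle and 9.91 to 10.38 in dosed kidneys at 6 h, and 8.95 to 9.49 and 8.85 to 9.25 at 12 h. The part of these cells in other contrasts was not tested.

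Among the 31 arrays, 12 h vehicle replicate 2 held adrenal cortex RNA markers at a summed 12.12 against a group median of 6.64, and without it 1187 contrasts were called. Dosed 12 h replicate 24 had the lowest array weight (0.388), and without it 1502 were called. Tra2b, a splicing regulator, fell by 1.32 and 0.97, and its contrast of 0.35 ± 0.34 was not called.

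The other dosed groups allow the same contrast, but they share the vehicle arrays, so values are set side by side with no test between them. Contrasts called were 69 (0.404 percent) for DMF at 100 mg/kg, 1262 (7.38 percent) for MEF salts and 478 (2.80 percent) for the combination. At 12 h these groups held 6, 7 and 4 arrays, beside 8 for the higher DMF dose, so the counts also depend on the number of arrays. The 4 combination arrays at 12 h hold places 9 to 12, which no vehicle array holds. For single genes the contrasts follow in the same order of groups. The contrasts of Hmox1 were -1.83, -3.24 and -3.08, beside -2.45 for the higher DMF dose. Cbr3 gave -2.02, -1.60 and -1.01 beside -1.30. Gclc gave -0.74, -1.15 and -1.40 beside -0.83. Depp1 gave 1.21, 0.96 and 2.41 beside 2.03. Trib3 gave 0.06, 0.32 and 1.50 beside 0.64, and Kcnj15 gave 0.22, 0.17 and -0.11 beside 0.81.

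**Figure D5:**
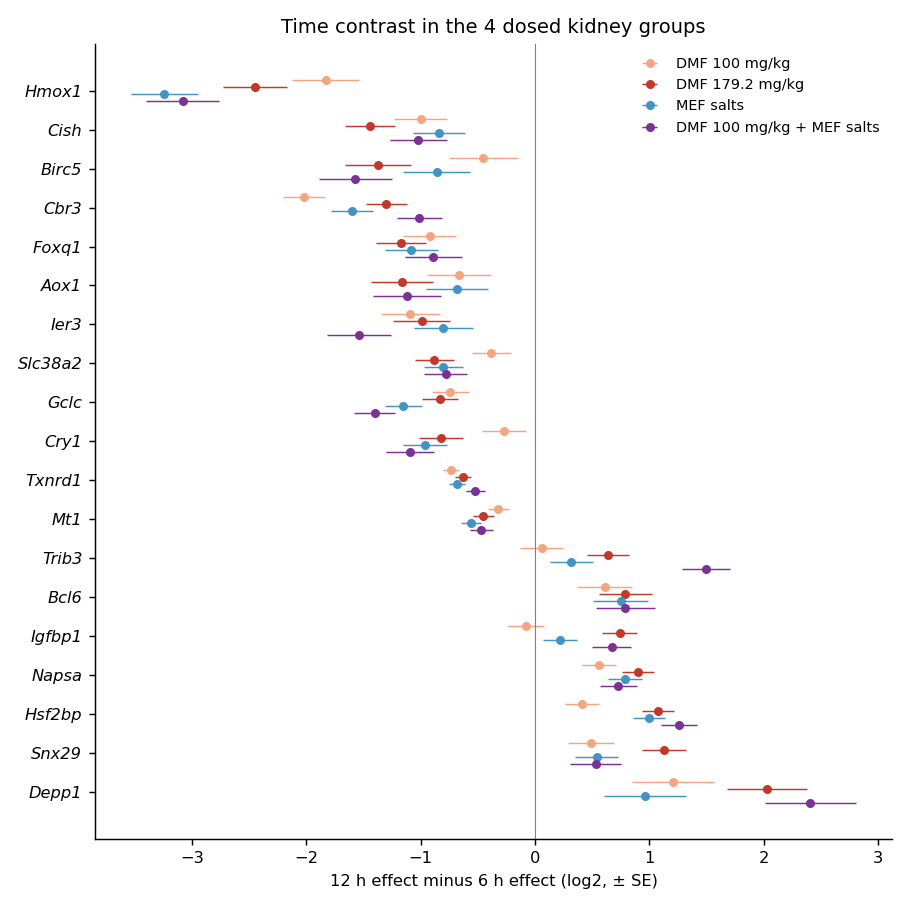
Time contrast (12 h effect minus 6 h effect, log2, error bars SE) of 19 genes in the 4 dosed kidney groups, which share their vehicle arrays. Hmox1 lies between -3.24 and -1.83 and Depp1 between 0.96 and 2.41, while Igfbp1 is -0.08 with DMF at 100 mg/kg and 0.74 at 179.2 mg/kg.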

How the data were processed

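The deposited log2 values of 550 Affymetrix arrays were made with RMA, GCRMA, R 2.11.1 and limma 3.4.5, per the submitters' processing notes, with no role or order given. Kidney arrays of a time share a floor (2.16 log2 at 6 h, 2.23 at 12 h) and near-equal medians (4.70 to 4.79 and 4.08 to 4.19), so the times were taken as normalized apart. The number of arrays limits the precision.

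Of 45141 probe sets, 28898 had 1 gene in the platform annotation, which can be old, 551 had several, 15588 had none and 104 were controls. The probe set with the highest kidney mean stood for each of 17097 genes. Limma 3.58.1 (R 4.3.3) fitted 1 mean for each of 11 groups to 77 arrays, with 66 residual degrees of freedom, and 2-sided p-values were adjusted by Benjamini-Hochberg over all genes. They measure the spread between arrays, each taken as 1 animal by its number. The other 473 columns were not used. The steps were tested on simulated data.

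Named genes are the 10 lowest and 10 highest called contrasts above the median level (5.95 log2), the largest of 4 patterns and of the lasting changes, up to 4 called members of a list, a short preset, and uncalled list members beside their counts, without sex-linked or predicted genes. Lrrc75b, Cebpd, H1f4, Pbk, Prc1 and Ugt2b5 were chosen after their values were seen. Members and lists were chosen with earlier results of these data known.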

Additional observations from a re-analysis of the deposited data

Results flagged for a closer look

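The 12 h effect of the higher DMF dose differed from the 6 h effect in 1220 genes by the interaction test. Of 320 groups of arrays of the 80 genes named, 24 held a single array far from the others by Dixon's test, which chance gives in about 1 of 20 groups. Of these, 9 were dosed 12 h replicate 24, 3 were dosed 6 h replicate 68, and the others were spread over 9 arrays.

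Replicate 24 of the dosed 12 h kidneys was high for genes of the ATF4 lists, at 5.40 for Trib3 (others 3.53 to 4.26), 6.31 for Atf3 (3.56 to 4.60), 8.34 for Asns (7.39 to 7.81) and 8.99 for Slc38a2 (7.92 to 8.27). It was also high for Bach1 at 9.96 (9.42 to 9.62) and Nfe2l2 at 9.30 (at most 9.14). It was low for Kcnj15 at 7.88 (8.61 to 9.24), Napsa at 6.54 (6.89 to 7.06) and Nfil3 at 6.47 (6.78 to 7.05).

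Dosed 6 h replicate 68 was high for the mitotic genes Birc5 at 7.92 (6.51 to 7.07) and Prc1 at 7.32 (5.61 to 6.40) and low for Hpd at 9.15 (10.18 to 10.78). Dosed 6 h replicate 69 was high for S100a9 at 8.41 (6.53 to 7.24) and low for Nfil3 at 5.37 (5.78 to 6.07). Dosed 6 h replicate 73 was high for Ccn1 at 9.80 (8.91 to 9.29) and low for Napsa at 6.62 (7.07 to 7.45). Dosed 6 h replicate 74 was low for Zfp101 at 6.50 (6.96 to 7.29).

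In vehicle kidneys at 6 h, replicate 55 stood at 3.25 for Gstm3 (2.82 to 2.92) and 7.21 for C8g (7.34 to 7.41), replicate 52 at 4.01 for Rrm2 (3.77 to 3.86) and replicate 57 at 5.26 for Tra2b (6.15 to 6.72). At 12 h, vehicle replicate 3 stood at 6.83 for Nfil3 (6.30 to 6.45), vehicle replicate 1 at 9.40 for Kcnj15 (8.76 to 9.04) and dosed replicate 17 at 11.79 for Gstm1 (11.99 to 12.17).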

How the results depend on the processing

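Over the arrays at places 5 to 8, with 3 or 4 arrays a group, 1 gene was called in the time contrast, 833 at 6 h and 225 at 12 h, and the fewer arrays are part of that setting. Array weights gave 2157 in the time contrast and 2278 at 12 h. Leaving out 1 array gave 945 to 1502 calls in the time contrast, 3797 to 4388 at 6 h and 987 to 1495 at 12 h. The lowest and highest counts of the time contrast came without dosed 6 h replicate 74 and dosed 12 h replicate 24. The other alternatives gave 1024 to 1369 calls in the time contrast. They were a further quantile normalization, dim genes left out, trend and robust variance, only the 4 groups compared, the mean of all probe sets, the probe set of largest variance, place as a line or a curve, and, added after the data were seen, quantile normalization over both times together (1317). No called contrast of a named gene changed sign under any of them. Of all 1220 called genes, 1100 kept their sign with the probe set of largest variance and 1182 with the mean of all probe sets. No paired analysis was possible because the groups compared share no animal numbers. Single genes are limited by probe sets that disagree, by the small overlap of the treatments in place and by few arrays.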

Other observations

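Among genes below the median level, some contrasts were as large as those described above, and the genes named here were chosen after their values were seen. Lrrc75b was at 4.18 to 4.88 in vehicle and 6.12 to 6.95 in dosed kidneys at 6 h, and at 3.17 and 3.17 to 3.65 at 12 h. Its effect of 2.06 ± 0.10 at 6 h was apart from vehicle on every array, that of 0.15 ± 0.10 at 12 h was not called, and the contrast was -1.92 ± 0.14 (adjusted p = 2.9e-16). Every 12 h vehicle array held the same value, so that group may lie at the lowest value this probe set takes.

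Cebpd, a C/EBP transcription factor of acute responses, rose by 0.48 ± 0.18 at 6 h and fell by 1.22 at 12 h, where dosed kidneys at 4.82 to 5.33 lay below vehicle kidneys at 5.87 to 6.62. Its contrast was -1.70 ± 0.26. The linker histone gene H1f4 had an uncalled 6 h effect of 0.19 ± 0.21 and rose by 1.61 ± 0.20 at 12 h, from 4.06 to 4.64 in vehicle to 5.11 to 7.43 in dosed kidneys, a contrast of 1.42 ± 0.29, while its other probe set gave -0.09. Pbk, a mitotic kinase, and Prc1, a spindle midzone protein, rose by 0.66 ± 0.22 and 0.76 ± 0.23 at 6 h. Their 12 h effects were -0.71 ± 0.21, called, and -0.57 ± 0.22, not called, and their contrasts were -1.37 ± 0.30 and -1.33 ± 0.32, close to that of Birc5.

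Ugt2b5, a glucuronosyltransferase outside the lists, was also below the median level of all genes and kept a large rise. Its effects were 3.12 at 6 h and 3.07 at 12 h, and dosed and vehicle kidneys did not overlap at either time. Its contrast was not called.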
